A study of Bos taurus with 4 samples.

Results

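The translation initiation and elongation factors were followed in cultured chromaffin cells of cattle, which store and release catecholamines in the adrenal medulla, with and without the neuropeptide PACAP. The name stands for pituitary adenylate cyclase-activating polypeptide, and the peptide acts largely through cyclic AMP. The members are the mouse cDNA clones on the array whose single annotated gene symbol starts with Eif and a digit from 1 to 6, or with Eef and 1 or 2. This gave 172 clones of 57 genes (46 Eif and 11 Eef), out of 35970 library clones, and every clone of a gene was kept. The symbols come from the array's annotation and not from these measurements. Of the 57 symbols, 51 also belong to a bovine gene. Chromaffin cells received 100 ng/ml PACAP for 6 h at 37 C, and their RNA, labelled with Cy5, was hybridised together with Cy3-labelled RNA of control chromaffin cells. There were 4 arrays, 1 for each biological repeat, and the labels do not say whether the repeats came from separate animals. PACAP RNA carried the same dye throughout, so any preference of a clone for a dye enters its ratio, and mouse clones were read with RNA of another species.

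Translation starts when eIF2 brings the initiator tRNA to the small ribosomal subunit and the eIF4 factors bring in the capped end of the mRNA, with eIF3 as the scaffold between them. Once eIF5 and eIF5B have let the large subunit join, eEF1A delivers each aminoacyl-tRNA and eEF2 moves the ribosome along. Secretory cells such as chromaffin cells draw on this machinery to replace the peptides and enzymes that they release.

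Values are log2(PACAP / control) after intensity-dependent (loess) normalisation of each array, so that 0 is no difference and 1 is a ratio of 2. They are given for repeats 1 to 4 in that order, then as the mean ± SD over the 4 arrays unless fewer are stated. Before normalisation, the median intensity of the factor clones was 1246, 1122, 479 and 780 in the PACAP channel, against 647, 344, 223 and 1863 in the control channel. For the factor clones, repeat 4 was thus the only array on which the control channel was the brighter. Of the 172 clones, 98 had a control signal above 2 SD of the local background on all 4 arrays, and 2 had it on none. Clones of close relatives can bind each other's RNA (Eef1a1 and Eef1a2, Eif4a1 and Eif4a2, Eif5a, Eif5a2 and Eif5al3-ps, Eif1a and Eif1ax, Eif2s3x and Eif2s3y), so values within those sets may be shared. The labels' tissue entry reads brain, while the chromaffin markers Th, Chga, Chgb, Ddc and Penk were above background in both channels on all 4 arrays. Scg2, Npy and Slc18a1 were above background on all 4 arrays in the PACAP channel, and on 2, 2 and 1 arrays in the control channel. Of 22 tested clones of fibroblast markers, 11 also had a control above background on all 4 arrays. Detection of markers thus does not settle the tissue entry. In RNA of whole cultures, fewer cells of a type and less RNA per cell cannot be told apart.

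**Figure D1:**
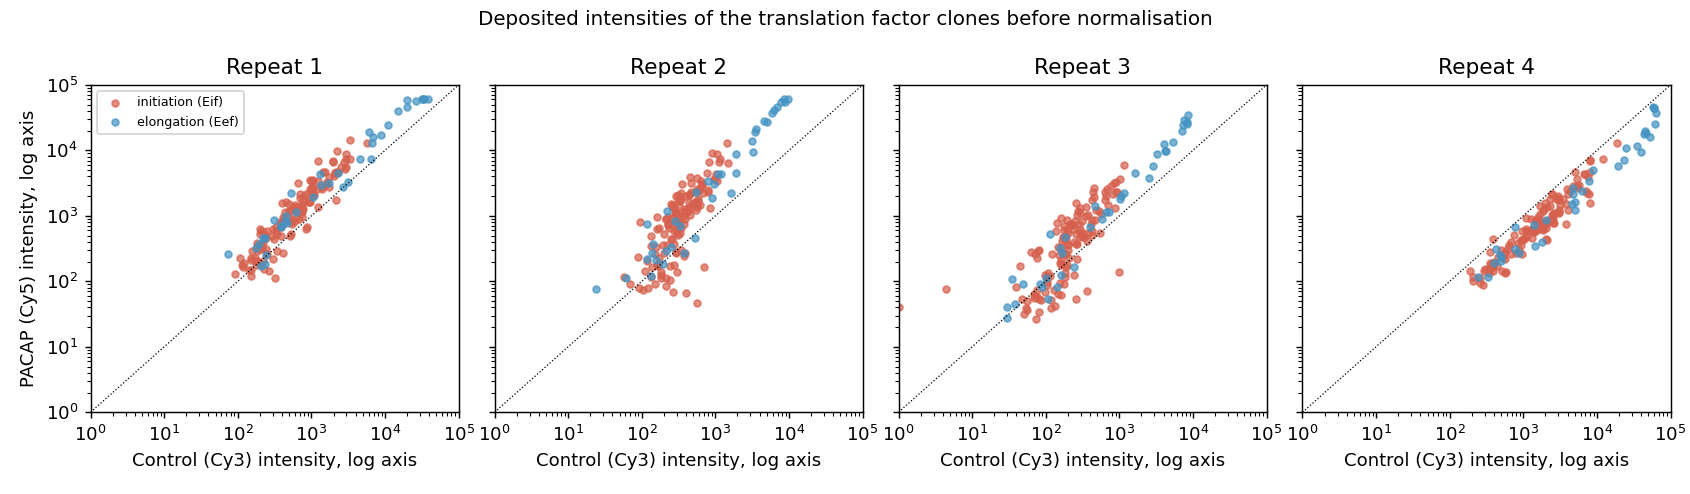
Deposited intensity of each factor clone in the PACAP channel (vertical, log axis) against the control channel (horizontal, log axis), 1 panel per repeat, with the line of equality dotted. Initiation factors are red and elongation factors blue; the cloud lies mostly above the line on repeats 1 to 3 and below it on repeat 4, where the medians were 780 in the PACAP channel and 1863 in the control channel.

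No factor clone passed an adjusted p of 0.05, nor did any of the 35120 clones tested with limma (background 0.0%), for which the lowest Benjamini-Hochberg adjusted p was 0.453. At an unadjusted limma p under 0.05, 38 of the 169 tested factor clones (22.5%) stood apart from 0, against 10.4% of all clones. Of the factor clones 29 (17.2%) were higher with PACAP, against 3.93% of all clones, and 9 (5.33%) were lower, against 6.46% of all clones. With an array left out, 23 factor clones (13.6%) passed that threshold without repeat 1, against 8.02% of all clones. It was 26 (15.4%) without repeat 2 and also without repeat 3, against 6.11% and 5.22% of all clones, and 38 (22.5%) without repeat 4, against 14.7%. The log2 ratio was above 0 on all 4 arrays for 37 factor clones (21.9%), against 9.59% of all clones, and below 0 on all 4 for 13 (7.69%), against 8.25%. The median over the tested factor clones was 0.09, against -0.01 over all clones, and by array it was 0.07, 0.15, 0.07 and 0.02. Most factor clones thus did not pass with loess normalisation. The split varied with the processing. With median centring, 56 factor clones were higher and 7 lower, against 2699 and 3402 of all 35120 clones. With the authors' deposited log2 ratios it turned to 7 higher and 34 lower, where all 34903 clones also leaned lower (444 higher and 3872 lower). These shares are descriptions, since clones of a gene are not independent. Below, a clone that passed had an unadjusted limma p under 0.05. The Benjamini-Hochberg adjusted p of every factor clone that passed was 0.453 to 0.48 (limma), so none is a call over the array.

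Initiation and elongation factors had medians on opposite sides of 0 with loess normalisation. The 131 tested initiation factor clones had a median of 0.15, with 27 clones higher and 7 lower at an unadjusted p under 0.05 (25.9%, against 10.4% of all clones). The 38 elongation factor clones had a median of -0.18, with 2 higher and 2 lower (10.5%, a share near that of all clones). The difference between the families was not tested, and the eEF1A and eEF2 medians turned to above 0 with median centring. With the deposited log2 ratios, the medians of 3 initiation groups turned below 0, to -0.57 for eIF3, -0.27 for eIF4E with its relatives and binding proteins, and -0.83 for eIF5, eIF5A, eIF5B and eIF6. The plot of gene medians under each way of processing gives single genes.

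**Figure D2:**
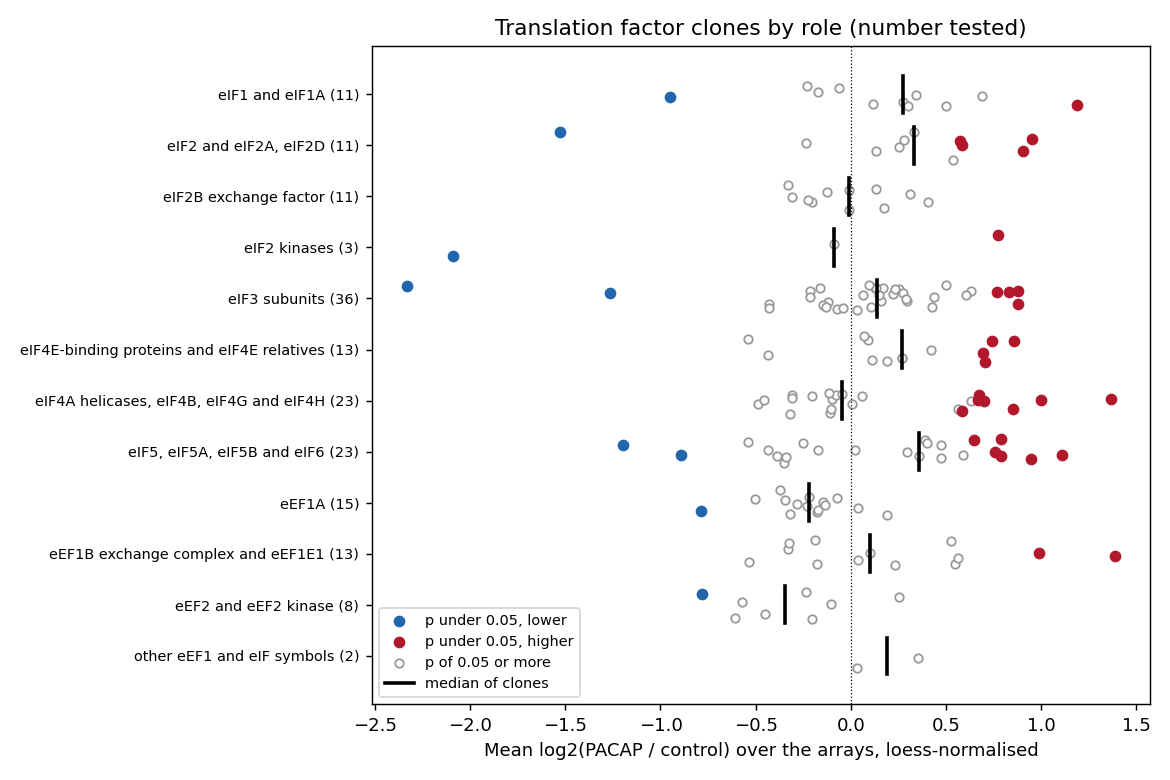
Mean log2(PACAP / control) of each tested factor clone (horizontal), grouped by role, with the number of clones in brackets. Filled points have an unadjusted limma p under 0.05 (29 higher in red, 9 lower in blue), open points do not, and the black bar is the median of the clones of a role.

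Among the factors that bind the mRNA cap, Eif4e, the cap-binding protein, had 5 clones, all with a mean above 0 (under the authors' deposited log2 ratios, their median turned to -1.13). Before normalisation, the Eif4e clone AU016482 read 3471, 2047, 741 and 1201 in the PACAP channel, against 959, 307, 223 and 1837.5 in the control channel. Its normalised log2 ratios were 0.79, 1.26, 0.83 and 0.56, with a mean of 0.86 ± 0.29. The clone passed and was above 0 on every array. Clone AW552141 gave 0.81, 0.53, 1.06 and 0.57, with a mean of 0.74 ± 0.24, and passed. Clones AW553254 and AW539362 averaged 0.71 ± 0.20 and 0.70 ± 0.42 and passed, again with 4 of 4 arrays above 0, but the array's own clone titles name another gene for them, a zinc finger protein and a KIAA-numbered protein. The remaining clone, AI835499, averaged 0.19 ± 0.36, did not pass and was below 0 on repeat 3. The mean of the 5 clones was 0.60, 0.78, 0.71 and 0.46 on the 4 arrays. AU016482 passed whichever array was left out. AW552141 no longer passed without repeat 1 (mean 0.72), AW553254 without repeat 2 (0.63) and AW539362 without repeat 2 or 3 (0.64 and 0.53).

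None of the clones of Eif4e's relatives and binding partners passed. Eif4e2, a cap-binding relative, averaged 0.27 ± 0.28 and 0.27 ± 0.58 in its 2 clones. Eif4e3, another relative, gave -0.75, -0.76, -0.84 and 0.19, with a mean of -0.54 ± 0.49, and repeat 4 alone lay above 0. Eif4ebp1, the binding protein that holds eIF4E back when it is not phosphorylated by mTOR, averaged 0.11 ± 0.19. Its relative Eif4ebp2 averaged -0.44 ± 0.56. The 3 clones of Eif4enif1, which carries eIF4E into the nucleus, averaged 0.07 to 0.42.

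Eif4g2, a relative of the scaffold eIF4G that lacks its eIF4E-binding part, had 6 clones, all with a mean above 0, and 5 of them had a p under 0.05; their median of 0.78 turned to -0.21 only with the deposited log2 ratios. Clone AU017452 gave 1.02, 1.43, 1.03 and 0.53, with a mean of 1.00 ± 0.37, and passed. Clone AI849235 gave 0.94, 2.55, 1.96 and 0.04, with a mean of 1.37 ± 1.11, and passed, and its control signal was above background on 1 array. The brightest clone, AW536743, was printed in 2 wells and gave 0.61, 0.88, 0.81 and 0.49, with a mean of 0.70 ± 0.18, and passed. Its wells averaged 0.69 and 0.71. Clone AW546437, titled as a Rab6 kinesin-like gene, averaged 0.85 ± 0.51 and passed. AI836099 averaged 0.59 ± 0.37 and passed, with a high value of 1.13 on repeat 2 (0.41 without it). The last clone, AI848116, averaged 0.63 ± 0.63, did not pass and was below 0 on repeat 4. Averaged over clones, Eif4g2 was at 0.87, 1.41, 0.87 and 0.28, all above 0. AU017452 and AI849235 passed whichever array was left out. AW536743 no longer passed without repeat 1 (mean 0.73), nor AW546437 without repeat 1 or 2 (0.71 and 0.71). AI836099 passed in none of the 4 fits that left out an array (0.41 to 0.67).

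**Figure D3:**
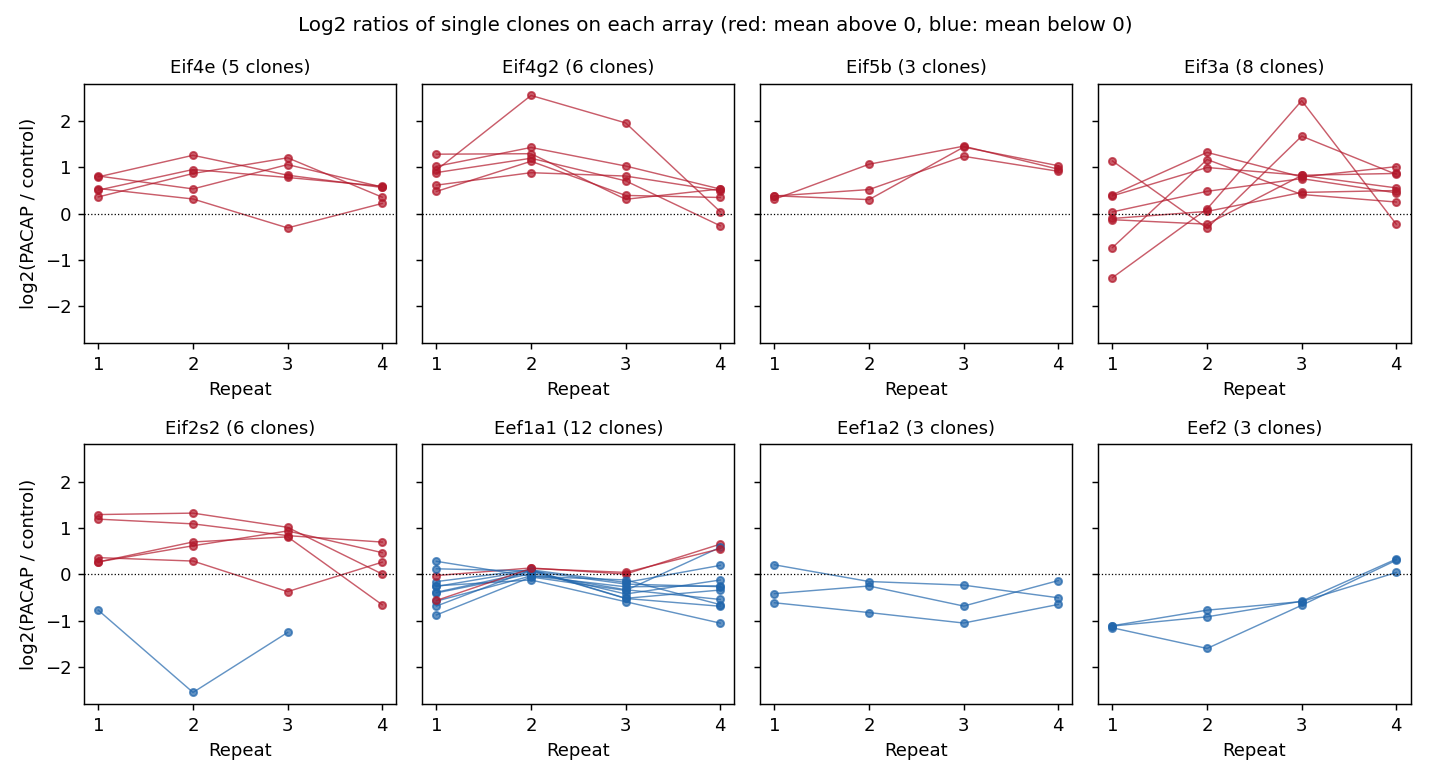
Log2(PACAP / control) on each of the 4 repeats (horizontal) for every tested clone of 8 genes, with a line per clone, red where its mean is above 0 and blue where it is below. Eif4e, Eif4g2, Eif5b and Eif3a clones have means above 0 throughout and Eef2 clones are at -1.11 or below on repeat 1 and above 0 on repeat 4, in the loess-normalised values; the order of repeats has no meaning.

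Elsewhere in the eIF4 group the clones disagreed or lay below 0. Of the 3 tested clones of Eif4a1, the RNA helicase that unwinds mRNA leaders, AW538002 gave 0.84, 0.91, 0.47 and 0.48, with a mean of 0.68 ± 0.23, and passed (-1.09 with the deposited log2 ratios). AW539329 averaged 0.56 ± 0.30 and did not pass. The other, AW048169, titled Tnf receptor-associated factor 2, averaged -0.10 ± 0.41. Without repeat 1 or 2, AW538002 averaged 0.62 or 0.60 and no longer passed. Its relative Eif4a2 had means of -0.31 to -0.08 in 3 clones, with values above 0 on repeats 1 and 2 and below 0 on repeats 3 and 4 for clone AI852357. Among 3 Eif4g3 clones, AW539204 averaged 0.67 ± 0.33 with 4 of 4 arrays above 0 and passed, and the other two averaged -0.12 and 0.00. Without repeat 1, 2 or 4, AW539204 averaged 0.75, 0.51 or 0.68 and no longer passed. Eif4b and Eif4h, both helpers of the eIF4A helicase, had no clone with a p under 0.05. Eif4b averaged -0.49 to 0.06 in 4 clones, and Eif4h averaged -0.46 to -0.05 in 4 clones. The Eif4b median of -0.26 turned to 0.49 with median centring, and the Eif4h median of -0.21 turned to 0.46 with the deposited log2 ratios.

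For eIF2, the carrier of the initiator tRNA, 9 of 11 tested clones of the subunits and of Eif2a and Eif2d had a mean above 0. Eif2s2, the beta subunit, had 6 clones and a median of 0.43, which was above 0 in the reported analysis and under all 14 other ways of processing. Among those ways, trend and robust moderation changes only the p-values, so it could not turn a median. The 4 fits that left out an array reuse the remaining arrays. Clone AW538481 gave 1.19, 1.09, 0.84 and 0.70, with a mean of 0.95 ± 0.23, and passed. Clone C78264 gave 1.29, 1.32, 1.01 and 0.01, with a mean of 0.91 ± 0.62, and passed. Clone AW557693 averaged 0.57 ± 0.28 and passed, but in none of the 4 fits that left out an array (mean 0.45 to 0.67). AW538481 passed in all 4 of those fits, while C78264 did not without repeat 1 or 2 (0.78 and 0.77). A further clone of the same gene, C80210, went the other way at -0.78, -2.55 and -1.26 (mean -1.53 ± 0.92, n = 3), and passed. It was dim, with 41.6 to 154 in the PACAP channel, against 132 to 405 in the control channel, and its control was above background on 1 array. Eif2a, which can bind initiator tRNA in an alternative way, gave 0.38, 0.42, 1.06 and 0.48, with a mean of 0.58 ± 0.32. It passed, but in none of the 4 fits that left out an array (mean 0.43 to 0.65). The gamma subunit clones, Eif2s3x AU015685 and Eif2s3y AU020637, averaged 0.54 ± 0.59 and 0.33 ± 0.52.

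The guanine nucleotide exchange factor eIF2B, which recharges eIF2 after each round, had 11 clones of 5 genes and none with a p under 0.05. Their means ran from -0.33 to 0.40 around a median of -0.01. Its catalytic subunit Eif2b5 averaged -0.23, 0.18 and -0.13 in 3 clones. The eIF2 kinases, which lower eIF2B activity by phosphorylating eIF2, each had a single clone. Eif2ak1, the heme-regulated kinase, gave 0.78, 1.13, 0.76 and 0.43, with a mean of 0.77 ± 0.28, and passed, but not without repeat 1 (mean 0.77). Eif2ak3 (PERK, the kinase of the endoplasmic reticulum) gave -0.35, -3.50 and -2.43, with a mean of -2.09 ± 1.61 on 3 arrays, and passed. Its spots had a median area of 46 pixels and read 187, 46.9 and 70.1 in the PACAP channel, against 204, 555 and 369 in the control channel. Without repeat 2 the mean was -1.39 and it no longer passed. Eif2ak4 (GCN2, the amino acid sensor) gave -0.08, -0.12, -0.20 and 0.04, a mean of -0.09 ± 0.10.

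Eif1b and eIF1A act in start codon selection. The 2 Eif1b clones went opposite ways, AU024490 at 1.02, 1.22, 2.05 and 0.47 (mean 1.19 ± 0.65) and AU022568 at -0.66, -0.88, -1.94 and -0.33 (mean -0.95 ± 0.70), and both passed. Each kept its side on all 4 arrays, so the mean over the clones, 0.12, describes neither of them. The spots of AU022568 had a median area of 54 pixels, against 118.5 for AU024490, and it no longer passed without repeat 3 (mean -0.62). The control was above background on 2 arrays for AU024490 and on 3 for AU022568. On repeat 3, where AU024490 was highest, its control read 71.2. Eif1a averaged -0.23 to 0.50 in 4 clones and Eif1ax averaged -0.06 to 0.69 in 4 clones, with no p under 0.05; the largest of these, Eif1ax AI836451, rested on a value of 2.39 on repeat 3.

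The eIF3 complex, with 36 tested clones of 11 genes, had a median of 0.14 (-0.57 with the deposited log2 ratios). At a p under 0.05, 4 clones were higher and 2 lower (16.7%, against 10.4% of all clones). Eif3a, its largest subunit, had 8 tested clones with means between 0.22 and 0.88, all above 0 (the median of 0.35 became -0.67 with the deposited log2 ratios). Clone C78481 gave 0.40, 1.32, 0.79 and 1.01, with a mean of 0.88 ± 0.39, and passed. Clone AW539467 gave 0.38, 0.99, 0.83 and 0.87, with a mean of 0.77 ± 0.27, and passed. Both were above 0 on each array and passed whichever array was left out. Clone AW554948 averaged 0.83 ± 0.84 and passed, with -0.32 on repeat 2. Without repeat 2 its mean was 1.22, and without repeat 1, 3 or 4 it was 0.73, 0.55 or 0.83 and no longer passed. Eif3j1, a loosely bound subunit, had 3 clones at 0.88 ± 0.70 (passed), 0.63 ± 0.78 and 0.44 ± 0.40, and its median stayed above 0 under every way of processing. The control was above background on 1, 2 and 3 arrays for these clones. With both channels required above background, only the clone at 0.44 remained. The highest Eif3j1 clone, AW544022, no longer passed without repeat 3 (mean 0.54). Eif3m averaged 0.60 ± 0.48 and 0.50 ± 0.45 in 2 clones that did not pass, above 0 on repeats 1 to 3 and below 0 on repeat 4 in both.

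Other eIF3 subunits did not pass, or did so in a single clone measured on 3 arrays. Eif3f clone BE981605 gave -0.74, -1.85 and -1.21, with a mean of -1.27 ± 0.56 on 3 arrays, and passed, while the 3 other clones of Eif3f averaged -0.43 to 0.17. BE981605 was dim, with 222, 67.6 and 39.8 in the PACAP channel, against 297, 263 and 117 in the control channel. Its control was above background on 2 arrays. Eif3k clone BF460549 averaged -2.33 ± 1.67 on 3 arrays, and passed, from small spots (median area 12 pixels), while the other two averaged -0.13 and 0.13. Eif3b averaged -0.21 to 0.30 in 4 clones, and Eif3l averaged -0.43 to 0.09 in 3 clones. Eif3i averaged -0.04 to 0.15 in 3 clones, 1 of which had 1.42 on repeat 2 and values below 0 on the others. The Eif3i clone at -0.04, AW539257, is titled as another gene. Eif3d, Eif3e and Eif3h, with 2 clones each, averaged -0.21 to 0.29.

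Among the factors of subunit joining, Eif5b, the GTPase that brings in the large subunit, had an unadjusted limma p under 0.05 in all 3 of its clones. Its median of 0.79 stayed above 0 under all 14 other ways of processing, with the limits given for Eif2s2. Clone AU046228 gave 0.31, 1.06, 1.45 and 0.96, with a mean of 0.95 ± 0.48, and passed. Clone AW554947 gave 0.38, 0.30, 1.44 and 1.03, with a mean of 0.79 ± 0.54, and passed. Clone C86013 gave 0.38, 0.52, 1.24 and 0.91, with a mean of 0.76 ± 0.39, and passed. All 12 values were above 0, and each clone was highest on repeat 3. The control was above background on 2, 4 and 3 arrays for these clones. AU046228 passed whichever array was left out. Without repeat 3 or 4, AW554947 averaged 0.57 or 0.71 and C86013 0.60 or 0.71, and neither passed.

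Eif5, the GTPase activator of eIF2, had 9 clones of both signs. Clones AU018839 (0.66, 1.16, 1.63 and 0.99, mean 1.11 ± 0.40) and AW537726 (mean 0.65 ± 0.41) were higher and passed. Clone AI841447 was lower, at -1.16, 0.26, -1.71 and -0.95 (mean -0.89 ± 0.83), and passed. In all 5 Eif5 clones lay above 0 and 4 below. AU018839 passed whichever array was left out. AI841447 no longer passed without repeat 1, 3 or 4 (mean -0.80, -0.62 and -0.87), nor AW537726 without repeat 2, 3 or 4 (0.66, 0.46 and 0.68). Eif5a, the factor that carries hypusine and eases peptide bond formation, averaged 0.39 ± 0.39 and 0.02 ± 0.31 in 2 clones. Eif5a2, its close relative, ranged from -1.20 ± 0.56 (AI850480, 3 arrays, passed) to 0.79 ± 0.75 (AW489276, passed) over 5 clones, none of which had a control above background on all 4 arrays. AI850480 no longer passed without repeat 1 (mean -0.93), nor AW489276 without repeat 1, 2 or 3 (0.92, 0.79 and 0.44). Eif6, which keeps the ribosomal subunits apart, averaged 0.48 ± 0.10, -0.44 ± 0.82 and -0.34 ± 0.43 in 3 clones. The Eif6 clone at 0.48, AW549256, was above 0 on all 4 arrays but did not pass.

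The elongation factor eEF1A gave bright signals on every array. The 12 Eef1a1 clones had a median intensity of 51374, 39318, 16757 and 19133 in the PACAP channel, against 19701, 6043, 6241 and 49962 in the control channel. The brightest clones read up to 61823 in the PACAP channel on repeat 1 and up to 63380 in the control channel on repeat 4. Whether readings this bright flatten the ratio was not tested. The ratios below are of all 12 Eef1a1 clones, including AW552980 (mean 0.04), which is titled as another gene. Their mean log2 ratios ran from -0.50 to 0.19, with 10 of 12 below 0 and none passing, and the median of -0.20 turned to 1.02 when arrays were centred on their median in place of loess. Averaged over clones, Eef1a1 was at -0.32, 0.04, -0.29 and -0.16, so its arrays lay on both sides of 0. The Eef1a1 clone of smallest p, AI835939, gave -0.25, -0.12, -0.59 and -1.05 (mean -0.50 ± 0.42). Eef1a2, the form found in neurons and muscle, was below 0 in its 3 clones, and clone AI836586 gave -0.61, -0.83, -1.05 and -0.65, with a mean of -0.79 ± 0.20, and passed (0.26 with median centring). Clones AI839944 and AI851597 averaged -0.37 ± 0.24 and -0.17 ± 0.29 and did not pass. AI836586 passed whichever array was left out.

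The eEF1B complex, which reloads eEF1A with GTP, is made of Eef1b2, Eef1d and Eef1g. Eef1b2 gave 1.14, 1.31, 0.73 and -0.98 in clone AI835282, above 0 on repeats 1 to 3 and below 0 on repeat 4 (mean 0.55 ± 1.05). Its other clone, AW548354, gave 0.59, 0.13, 0.32 and -0.90, with a mean of 0.04 ± 0.65, and neither passed. The 2 Eef1d clones averaged 0.56 ± 0.65 and -0.53 ± 0.66. Of 6 Eef1g clones, AW551894 gave 0.83, 2.05, 1.69 and 0.99, with a mean of 1.39 ± 0.57. It passed in this and every fit with an array left out, and its control was above background on 2 arrays. The other 5 averaged -0.33 to 0.10, with none at a p under 0.05, so the gene's median was -0.18 (0.54 with median centring). Eef1e1, a small protein related to this complex that sits with the tRNA synthetases, was above 0 in 3 clones. Its clone AI835279 gave 0.51, 0.82, 1.91 and 0.70, with a mean of 0.99 ± 0.63, and passed, and the others averaged 0.53 ± 0.31 and 0.23 ± 0.25 and did not pass. The Eef1e1 median of 0.53 was above 0 under all 14 other ways of processing too, with the limits given for Eif2s2. The control was above background on 2 arrays for AI835279, whose control read 35.2 on repeat 3. For the clones at 0.53 and 0.23 it was above background on 3 and 4 arrays.

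Eef2, the translocase that moves the ribosome by a codon, was below 0 in its 3 clones by the mean (median -0.61, and 0.16 with median centring). Clone AI835929 gave -1.16, -1.60, -0.67 and 0.30, with a mean of -0.78 ± 0.82, and passed. Clone AI840031 gave -1.11, -0.77, -0.59 and 0.04, with a mean of -0.61 ± 0.48, and did not pass. Clone AW551989, averaged over 3 wells, gave -1.12, -0.92, -0.58 and 0.33, with a mean of -0.57 ± 0.64, and did not pass. The 3 clones lay together, below 0 on repeats 1 to 3 and above 0 on repeat 4. Without repeat 4 the mean of AI835929 was -1.14 and it still passed, and without repeat 1, 2 or 3 it was -0.66, -0.51 or -0.82 and no longer passed. Eef2k, the kinase that switches eEF2 off, averaged -0.45 ± 0.72, 0.26 ± 0.26 and -0.24 ± 0.38 (n = 3) in 3 clones. A further clone, AI842850, was tested on 3 arrays and did not pass; its control signal was above background on none of them, so its ratio is not given. The Eef2k clone at 0.26, AI844203, was above 0 on all 4 arrays but did not pass. The enzymes that methylate these factors, Eef1akmt1, Eef1aknmt and Eef2kmt, averaged 0.03 ± 0.65, 0.35 ± 0.35 and -0.20 ± 0.74.

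The agreement between clones of a gene can be described without the p-values. Such clones share the arrays and dyes, so what made them agree was not tested. Among all pairs of tested factor clones, 65.9% of 293 pairs from the same gene had means of the same sign, against 50.01% of pairs from different genes. Where the control was above background on all 4 arrays for both clones, it was 76% of 150 pairs, against 49.0% of pairs from different genes, and the median gap was 0.21, against 0.43. Eef1a1, with 12 clones that all had such a control, supplied the most same-gene pairs in both counts. Of 43 genes with at least 2 tested clones, 11 had every clone above 0, 6 had every clone below 0 and 26 had both signs. Clones passing at a p under 0.05 in both directions were found for 4 genes (Eif1b, Eif2s2, Eif5 and Eif5a2), and 6 genes had at least 2 clones passing higher (Eif2s2, Eif3a, Eif4e, Eif4g2, Eif5 and Eif5b). No gene had more than 1 clone passing lower. These counts by gene were not made over all genes on the array, and a gene with more clones has more chances to reach 2. With a single clone per gene, the brightest, 7 of 57 genes were higher and 1 was lower; of 11740 named genes read the same way, 8.86% passed, 4.33% higher and 4.53% lower. Over the factor clones, repeats 1 to 3 correlated with one another at Pearson's r of 0.449 to 0.618, and repeat 4 correlated with them at 0.200 to 0.378. Over all clones those values were 0.232 to 0.385 and -0.128 to -0.00784; these are descriptions across clones that share arrays.

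**Figure D4:**
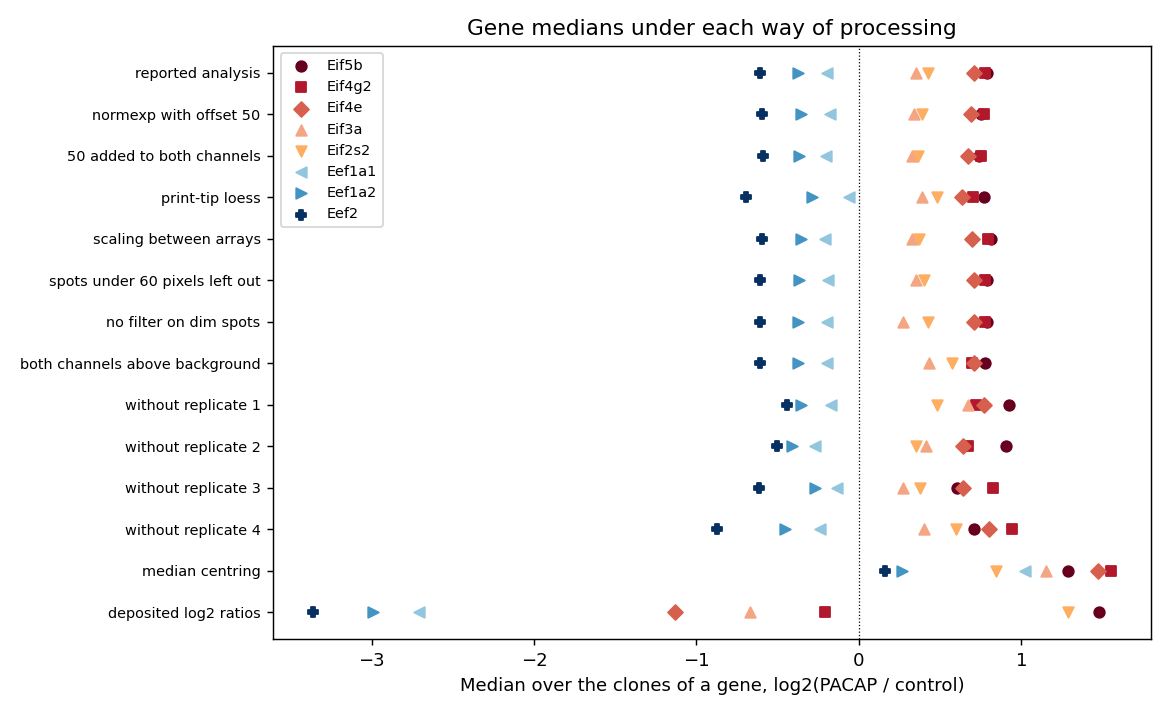
Median log2(PACAP / control) over the clones of 8 genes (horizontal) under the reported analysis and each other way of processing (vertical). Eif5b and Eif2s2 lie above 0 throughout, Eif4e, Eif4g2 and Eif3a lie above 0 except with the deposited log2 ratios, and Eef1a1, Eef1a2 and Eef2 lie below 0 except with median centring, where they reach 1.02, 0.26 and 0.16.

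The direction of several factors varied with the normalisation. With arrays centred on their median in place of loess, the median of the factor clones was 0.53, against -0.03 for all clones. At a p under 0.05, 56 factor clones were then higher and 7 lower (37.3%), against 2699 and 3402 of all clones (17.4%). The authors' deposited log2 ratios had a second background subtraction and were centred here on each array's median. In them the median of the factor clones was -0.74, against -0.24 for all clones. Of the factor clones 7 were higher and 34 lower (24.3%), against 444 and 3872 of all clones (12.4%). Under the other 12 ways of processing, the Eif4e median lay between 0.63 and 0.80, Eif4g2 between 0.67 and 0.94, Eif5b between 0.60 and 0.92, and Eef2 between -0.87 and -0.44.

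Other genes of translation were read from 7 lists in the same fit, in which 48.6% of all clones were above 0 and 10.4% had a p under 0.05 (3.93% higher and 6.46% lower). Of 48 clones of aminoacyl-tRNA synthetases, which charge tRNAs, 36 were above 0, with 5 higher and 1 lower (12.5% in all) at a p under 0.05, including Eprs at 0.92 ± 0.36, Gars at 0.98 ± 0.71 and Tars at 0.76 ± 0.27. For termination and ribosome recycling, 15 of 18 clones were above 0, with 3 higher and 1 lower (22.2%). Abce1, which splits ribosomes, averaged 0.73 ± 0.39 and Gspt1, a release factor, 0.57 ± 0.21, while Hbs1l averaged -0.90 ± 0.49. Both lists had medians above that of all clones, 0.21 and 0.39, against -0.01. Around the eIF2-based stress response, 18 of 28 clones were above 0, with 4 higher and 0 lower (14.3%), among them Dnajc3, an inhibitor of PERK, at 0.79 ± 0.52, Gcn1 at 0.67 ± 0.41 and the asparagine synthetase gene Asns at 0.58 ± 0.26. For hypusination and polyamine synthesis, 13 of 20 were above 0, with 2 higher and 0 lower (10%). Azin1, the antizyme inhibitor, gave 0.49, 1.44, 1.48 and 0.89 (1.07 ± 0.47) and passed, while Oaz2 at 0.54 ± 0.25 and Odc1 at 0.43 ± 0.44 did not. The remaining lists had medians closer to that of all clones (0.01, 0.06 and 0.06, in the order below). mTOR, S6 kinase and MNK signalling had 15 of 30 clones above 0 with 1 higher and 2 lower, 10% in all (Mlst8 0.65 ± 0.50, Akt1s1 -0.71 ± 0.58 and Tsc1 -0.56 ± 0.25). Poly(A)-binding and cap-associated regulators had 23 of 39 with 2 higher and 3 lower, 12.8% in all (Cpeb2 0.81 ± 0.41, Cpeb1 -0.68 ± 0.27 and Ybx1 -1.31 ± 1.02, which was 0.21 on repeat 4), and mitochondrial factors had 7 of 12 with none passing (Tufm -0.69 ± 0.77, Mtif2 0.40 ± 0.30 and Mtrf1l -0.45 ± 0.56).

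Markers of other cells in the adrenal gland were read beside these values. At a p under 0.05, which 10.4% of all clones reached, 1 of 13 clones passed for adrenal cortex (Mc2r 0.80 ± 0.32), 1 of 22 for fibroblasts (Col1a1 -0.77 ± 0.67), 1 of 8 for endothelium (Flt1 -1.30 ± 0.69), 0 of 18 for Schwann and sustentacular cells and 0 of 9 for leukocytes. Of 11 clones of chromaffin markers 3 were higher (Scg2 1.84 ± 0.84, Penk 0.86 ± 0.35 and a Chgb clone 0.71 ± 0.56) and 1 was lower (a Chga clone, -0.69 ± 0.18). The part of cell composition in the values of the translation factors was not tested.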

How the data were processed

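The 4 two-colour arrays carry PACAP RNA in Cy5 and control RNA in Cy3, per the labels. Mean spot intensity, local background, spot area and a ratio per spot were deposited by the authors, per the file headers; from the values, the mean intensity already had the background subtracted, and the image analysis program is not named in the labels or headers. The spot quality, a fraction from 0 to 1 in the authors' deposited files, was not used. The series table holds the authors' log2 ratios, which matched log2(Cy5 / Cy3) after a second background subtraction, less an array factor and uncentred; direction, scale and centring were found from the values. Medians of the deposited log2 columns over the matched entries were 4.67, 5.53, 4.25 and -0.38 on repeats 1 to 4. It was matched with the spots through plate and well (35695 of 35873 entries within 0.1 log2). Of 36096 library spots, 22477 had 1 symbol, 1111 several and 12508 none, and none was named from several.

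Intensities were floored at 1 and normalised within each array by global loess (limma 3.58.1, R 4.3.3). Spots of 1 clone were averaged, and a clone was tested where a channel exceeded 2 background SD on at least 3 of 4 arrays, which left out 3 factor clones. Mean log2 ratios were set against 0 in limma (2-sided, intercept only, Benjamini-Hochberg over 35120 clones), and the procedure was tested on simulated data. The number of arrays limits the precision. The p-values rest on the spread between these arrays, which limma moderates towards that of all clones tested. A clone with a small SD can thus fail to pass. The text names, for each role, clones of smallest p in each direction, genes with at least 3 tested clones, clones of 1 sign on all arrays with p under 0.05, and 11 chosen genes, of which Eif4g1 and Eif2s1 were not analysed here. Members, lists and tests were chosen with earlier results of these data known. Clone titles are the scanner files' own. Figures used Python 3.11.15, pandas 2.3.3, numpy 2.4.6 and matplotlib 3.10.9. Alternatives are given in the closing section.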

Additional observations from a re-analysis of the deposited data

Results flagged for a closer look

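Of 134 values read on 4 arrays, 8 had an array far from the others by Dixon's gap test; chance alone gives about 1 in 20. For the share of library spots above background in the PACAP channel, repeat 4 had 90.7%, against 97.4 to 98.3% on the other arrays.

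The other 7 were log2(PACAP / control) ratios of single clones. On repeat 3, the Eef1g clone AW551418 was at -0.60 (others -0.25 to -0.24), the Eef1g clone AW546855 at -0.52 (others -0.09 to -0.06), the Eif2a clone AW539102 at 1.06 (others 0.38 to 0.48) and the Eif2s2 clone AI851493 at -0.37 (others 0.26 to 0.36). On repeat 2, the Eif3i clone AI841933 was at 1.42 (others -0.42 to -0.15) and the Eif4g2 clone AI836099 at 1.13 (others 0.35 to 0.48). On repeat 4, the Eif4g3 clone AW550951 was at 0.39 (others -0.16 to -0.07).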

How the results depend on the processing

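The reported test was already paired, because each array's ratio sets PACAP against the control of the same repeat. No other pairing was fitted, and the arrays form a single group. At an unadjusted p under 0.05, all clones numbered 3648 (10.4%) in the reported analysis and 6101 (17.4%) with median centring. With both channels required above background, 2346 of the 20374 clones then tested passed (11.5%). With an array left out, 1835 to 5151 passed (2145 without repeat 2, 1835 without repeat 3). Factor clones numbered 38 (22.5%), against 63 (37.3%) with median centring, and 23 to 38 with an array left out (23 without repeat 1). Their median of 0.09 became 0.525 with median centring and -0.744 with the deposited log2 ratios, and was 0.04 to 0.12 with an array left out. Adjusted p under 0.05 was reached by 461 clones with the deposited log2 ratios, 2 of them factors (Eif2ak3 and Eif3k), and by 3 clones, no factors, with trend and robust moderation.

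Signs turned for 10 values. With median centring, Eef1a2 AI836586 was at 0.26 and Eef2 AI835929 at 0.06. With the deposited log2 ratios, Eif3a AW539467 was at -1.04, Eif4a1 AW538002 at -1.09, Eif4g2 AW546437, AW536743 and AI836099 at -1.34, -1.78 and -1.93, and Eif4e AU016482, AW553254 and AW539362 at -1.13, -1.88 and -1.63. The cause was not tested. Of the 38 factor clones with p under 0.05, 28 kept their sign in every setting and 15 kept p under 0.05 in all 4 fits with an array left out. Chosen after seeing the data, clones titled as another gene were left out, which gave 35 of 163, and clones titled as the factor alone gave 18 of 78. Dim controls limit the ratios: 74 of 172 factor clones had a control above background on under 4 arrays.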
